A study of Mus musculus with 30 samples.

Results

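The response of untreated wild-type macrophages to lipopolysaccharide (LPS) was followed in 6 of the 30 RNA-seq libraries of the series. These are the 3 libraries of unstimulated cells and the 3 libraries of LPS-stimulated cells that received no compound, chosen by their column labels and not by any measured value. The cells were bone marrow derived macrophages, primary cells grown from marrow progenitors in culture, of 3 C57BL/6 mice. Each mouse gave 1 library per condition, unstimulated (labelled 0 h) or stimulated with 10 ng/mL LPS for 18 h. The LPS cells had thus also been cultured for 18 h longer, and the effects of LPS and of culture time cannot be told apart. Other libraries of the series are from Ch25h-/- mice, which lack the enzyme that makes 25-hydroxycholesterol (25HC), and from wild-type cells pretreated for 18 h with 5 uM 25HC, 1 uM itraconazole or 0.3 uM OSW-1. The untreated Ch25h-/- cells and the 25HC-pretreated cells, 3 mice per group, were used for the comparisons of responses near the end. In the series labels the unstimulated libraries of untreated cells, of both genotypes, are marked as OSBP controls. The untreated LPS libraries carry no such mark, and no vehicle is named.

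LPS, a component of the outer membrane of Gram-negative bacteria, is carried by Lbp and Cd14 to the receptor Tlr4 with its partner Ly96. Tlr4 signals at the plasma membrane through Myd88 to NF-kB and MAP kinases, and from endosomes through Ticam1 and Ticam2 to Irf3 and type I interferon. Interferon made by the cells acts back on them through Ifnar1 and Ifnar2, Jak kinases and Stat factors. The first cytokine genes are switched on within an hour or so in macrophages and many decline again, while products of the later waves accumulate. A harvest at 18 h is therefore a late view of the response. Macrophages stimulated in this way are known to shift to glycolysis, to make nitric oxide and itaconate, and to stop dividing.

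A gene is said to have risen or fallen when its adjusted p was under 0.05 in edgeR's quasi-likelihood test, with Benjamini-Hochberg adjustment over 13173 tested genes. Values with ± after a change are log2 fold changes with LPS and their standard errors. Levels are in CPM, counts relative to the library total after scaling by the TMM normalization factors, and are listed in the order mouse 1, 2 and 3, or as mean ± SD over the 3 mice of a group (n = 3 throughout). The unstimulated libraries held 30634780 to 38711824 counts and the LPS libraries 36343366 to 40904822. Every count in these 6 libraries is an even number, and counts were halved to reads, on the assumption that each read was counted in duplicate, before any floor or counting interval was computed. A gene with no read in a group is given a lower bound from 3 reads summed over the group's libraries. These bounds and intervals cover counting error only. LPS libraries carried lower scaling factors (0.796 to 0.905) than unstimulated ones (1.05 to 1.09). Scaling to total counts alone moved the median log2 fold change of all genes from -0.01 to -0.35, and directions of gene groups that depend on it are marked. Counts of group members that rose or fell depend on it too, and are given for the TMM scaling. The macrophage markers, among them Emr1 (F4/80), Csf1r, Cd68, Itgam, Mertk, Fcgr1, Cd14, Lyz2 and Spi1, were each above 1 CPM in every group, summing to 18124 to 22887 CPM unstimulated and 25364 to 36950 CPM with LPS. Of 11 neutrophil markers the sum was 25.5 to 47.6 CPM and then 245 to 267 CPM, nearly all of it Csf3r. Markers of T cells summed to 179 to 221 CPM unstimulated and 18.4 to 28.0 CPM with LPS, mostly Cd28 and Cd4, with Cd3e and Cd8a at 0. Dendritic cell, B cell, natural killer cell, mast cell, stromal, endothelial, erythroid and megakaryocyte lists each stayed at or below 30.1 CPM. Fewer cells of a type and less RNA per cell cannot be told apart in such bulk libraries, and the part of these markers in the results was not tested. The 3 libraries of a group come from separate mice. The LPS library of mouse 3 differed from those of mice 1 and 2 in many of the genes described below, and changes that rest on it are given with and without it.

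Most of the measured transcriptome differed between the groups. Of 13173 genes, 8024 differed (60.9%), of which 4056 rose (30.8% of all tested) and 3968 fell (30.1%), while 5149 passed in neither direction, with a median log2 fold change of -0.01. On total counts without TMM the split was 2277 higher and 6533 lower. At a fold of at least 2, 1520 genes rose (11.5%) and 1724 fell (13.1%), and at a fold of at least 64 there were 94 and 104. The groups did not overlap for 8138 genes (61.8%). From a mean under 1 CPM to a mean of at least 10 CPM went 44 genes, among them Marco, Cd38, Fpr1, Fpr2 and Ptgs2, and 77 genes went the other way, among them Ccna2, Plk1, Hpgd and Gpr34. In the groups described below, shares of members that rose or fell are to be read against 30.8% and 30.1%.

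The 15 genes with the largest increases include secreted proteins, mediators and enzymes. The 15 largest changes each way were taken among genes without overlap that averaged a log2 CPM of at least 2 over all 30 libraries. Saa3, an acute-phase apolipoprotein that macrophages secrete, stood at 4.02, 1.04 and 5.57 CPM unstimulated and 45072, 38049 and 38684 CPM with LPS. It was close to absent in all 3 unstimulated libraries and took up 3.45 ± 0.166% of all counts of the LPS libraries, a rise of 13.49 ± 0.71, adjusted p = 2.11e-14. Its neighbour Saa1 had no read unstimulated and 23.6, 18.4 and 11.9 CPM with LPS, at least 338-fold higher. Nos2, the inducible nitric oxide synthase, likewise had no unstimulated read and reached 691, 409 and 174 CPM, with mouse 3 the lowest, at least 7978-fold higher. Hp (haptoglobin, which binds free hemoglobin) went from 0.0945, 0.156 and 0.248 to 544, 439 and 521 CPM, a rise of 11.58 ± 0.56. The siderophore binder Lcn2 went from 0.284, 0.782 and 0.681 to 2056, 1945 and 1163 CPM (11.55 ± 0.39). Both genes were flat in the unstimulated mice and differed little between the LPS mice next to the size of the change. Ccl5, a chemokine for T cells and monocytes, went from 1.94, 2.29 and 3.59 to 7466, 6087 and 5760.3 CPM (11.28 ± 0.30, adjusted p = 4.30e-20). Irg1 (Acod1), which makes itaconate, went from 2.79, 2.40 and 4.58 to 3838, 3684 and 1865 CPM (9.92 ± 0.68). Ptges, the inducible prostaglandin E synthase, went from 1.04, 0.886 and 0.929 to 1136, 979 and 406 CPM (9.78 ± 0.39). In both of the last genes mouse 3 reached less than mice 1 and 2, and no LPS value came near an unstimulated one.

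Less familiar members of the same 15 were Syt7, Tarm1, Rasgrp1 and Heatr9. Syt7, a calcium sensor of lysosome exocytosis, had no read unstimulated and 5.90, 6.60 and 1.88 CPM with LPS, at least 90.4-fold higher. Tarm1, an activating receptor of myeloid cells, rose from 0.236, 0.0521 and 0.0619 to 75.9, 67.6 and 38.9 CPM (8.90 ± 0.51). Rasgrp1, a Ras exchange factor best known in lymphocytes, went from 0, 0.0521 and 0.124 to 47.6, 42.1 and 28.9 CPM, a ratio of 744 (95% counting interval 254 to 3612). The 3 genes were thus near 0 in every unstimulated mouse and separate from it in every LPS mouse. Heatr9, a gene of little known function, had a single unstimulated read and 19.3, 19.8 and 10.0 CPM with LPS, a ratio of 927 (95% counting interval 166 to 36639.7). Mmp14, a membrane-bound metalloproteinase, went from 0.236, 0.261 and 1.36 to 325, 366 and 446 CPM (9.35 ± 0.49), and Cfb, the protease of the alternative complement pathway, from 0.0473, 0.0521 and 0.0619 to 59.4, 58.8 and 46.1 CPM, a ratio of 1031 (95% counting interval 353 to 5004).

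**Figure D1:**
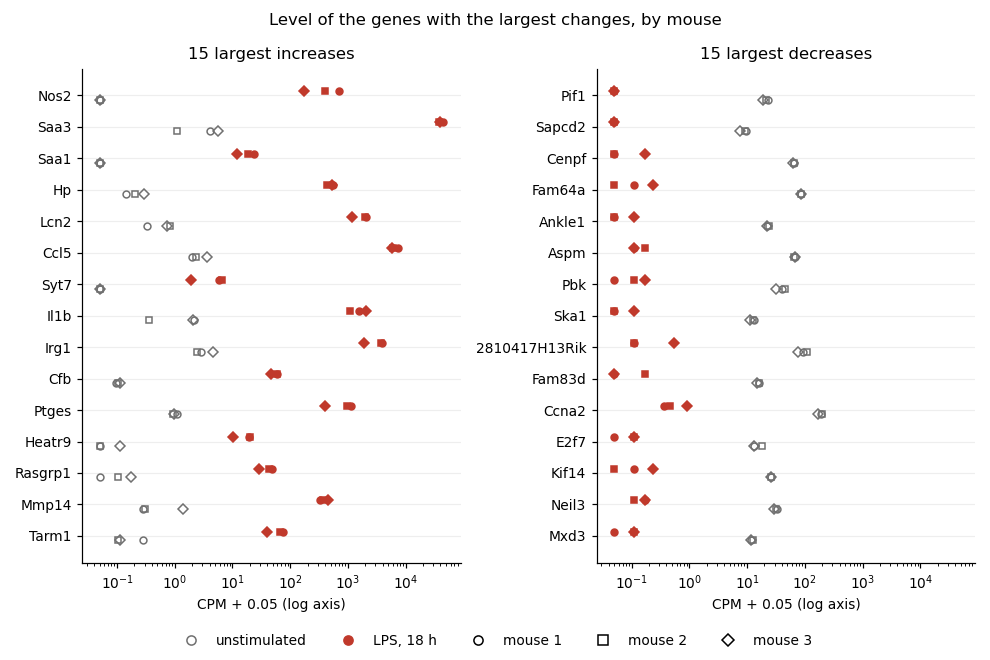
CPM + 0.05 on a log axis for the 15 genes with the largest increases (left) and the 15 with the largest decreases (right), open grey symbols for unstimulated and filled red symbols for LPS libraries, 1 symbol shape per mouse. The genes were chosen among those whose groups do not overlap, so the gap between conditions comes from the choice. Nos2 is at 0 unstimulated and at 691, 409 and 174 CPM with LPS.

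The 15 genes with the largest decreases were Pif1, Sapcd2, Cenpf, Fam64a, Ankle1, Aspm, Pbk, Ska1, 2810417H13Rik, Fam83d, Ccna2, E2f7, Kif14, Neil3 and Mxd3. Cenpf, a kinetochore protein, stood at 65.5, 64.7 and 63.2 CPM unstimulated and 0, 0 and 0.122 CPM with LPS, an unstimulated to LPS ratio of 1595 (95% counting interval 441 to 13172). Ccna2 (cyclin A, the partner of Cdk1 and Cdk2 in S phase and mitosis) stood at 189.5, 198 and 169.7 CPM unstimulated and 0.307, 0.420 and 0.851 CPM with LPS, and fell by 8.45 ± 0.21, adjusted p = 1.31e-20. Aspm, which focuses spindle poles, was at 67.8, 65.9 and 67.4 CPM before and 0.0615, 0.120 and 0.0608 CPM after. Pbk, a mitotic kinase, was at 39.5, 45.3 and 32.3 CPM and then 0, 0.0600 and 0.122 CPM. The helicase Pif1 was at 23.3, 20.8 and 19.1 CPM, with no read in any LPS library, and was at least 351-fold lower. The unstimulated mice were close to each other in these genes, and the LPS mice lay near the floor of detection.

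Per unit of exon length, the most abundant transcripts of unstimulated cells were Lyz2 (lysozyme), at 29591 ± 3029.5 on a CPM-like scale set per kilobase of exon, and the lysosomal protease Ctsd, at 18288 ± 755. Ctsb, B2m, Psap, Ftl1, Lgals3, Tmsb4x and Fth1 were also among the first 12. With LPS, Saa3 led at 39283 ± 1259.8 on the same length-scaled scale, followed by Fth1, the ferritin heavy chain that stores iron, at 35964 ± 1170.3. Lyz2 followed at 29694 ± 11374, with mouse 3 highest, and Ccl5 stood at 16869 ± 1103. The levels of these LPS transcripts other than Lyz2 varied little between the 3 mice. B2m, the light chain of MHC class I, went from 10399.8 ± 226 to 20372 ± 2201. The 10 most counted genes took up 10.1 ± 1.05% of counts unstimulated and 15.4 ± 0.783% with LPS, of which Fth1 alone held 4.21 ± 0.201% (0.885 ± 0.0449% unstimulated).

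The promoters of the genes that rose and fell were searched for short motifs. Windows of 300 bases (250 before to 50 after the annotated start, RefSeq, GRCm38.p6) were searched on both strands. They were matched by symbol for 10074 of the 13173 tested genes. Of these, 2044 had more than 1 window, and only the first listed was searched. The 6 windows below, without their last 30 bases, are those of genes with large changes. Each was picked for a match to 1 of the searched motifs, marked in capitals, and can hold matches to others.
Saa3: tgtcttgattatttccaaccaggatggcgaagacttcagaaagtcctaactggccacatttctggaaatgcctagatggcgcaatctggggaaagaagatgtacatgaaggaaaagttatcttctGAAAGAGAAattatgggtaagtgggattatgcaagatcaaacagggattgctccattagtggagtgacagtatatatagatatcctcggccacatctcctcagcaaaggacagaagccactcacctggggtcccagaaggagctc
Marco: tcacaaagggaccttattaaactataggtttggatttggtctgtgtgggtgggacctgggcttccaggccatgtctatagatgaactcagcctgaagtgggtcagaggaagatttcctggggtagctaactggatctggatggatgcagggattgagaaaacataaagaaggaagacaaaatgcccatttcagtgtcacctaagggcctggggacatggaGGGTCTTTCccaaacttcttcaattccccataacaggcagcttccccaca
Cxcl9: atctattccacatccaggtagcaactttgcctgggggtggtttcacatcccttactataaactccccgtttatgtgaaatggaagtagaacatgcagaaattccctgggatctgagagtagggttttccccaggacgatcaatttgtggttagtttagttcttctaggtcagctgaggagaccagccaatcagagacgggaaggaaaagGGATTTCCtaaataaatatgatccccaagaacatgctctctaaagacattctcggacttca
Heatr9: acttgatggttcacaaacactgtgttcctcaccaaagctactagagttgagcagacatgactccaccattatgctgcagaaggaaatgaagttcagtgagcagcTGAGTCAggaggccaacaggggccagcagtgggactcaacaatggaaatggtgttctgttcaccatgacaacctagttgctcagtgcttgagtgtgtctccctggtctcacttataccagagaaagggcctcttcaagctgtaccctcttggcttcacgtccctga
Mcm5: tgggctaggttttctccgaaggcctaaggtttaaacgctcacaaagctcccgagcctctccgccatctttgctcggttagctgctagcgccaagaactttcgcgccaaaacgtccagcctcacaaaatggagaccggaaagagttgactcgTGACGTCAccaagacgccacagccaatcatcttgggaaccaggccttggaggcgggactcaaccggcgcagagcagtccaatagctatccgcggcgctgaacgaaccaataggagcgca
Cenpf: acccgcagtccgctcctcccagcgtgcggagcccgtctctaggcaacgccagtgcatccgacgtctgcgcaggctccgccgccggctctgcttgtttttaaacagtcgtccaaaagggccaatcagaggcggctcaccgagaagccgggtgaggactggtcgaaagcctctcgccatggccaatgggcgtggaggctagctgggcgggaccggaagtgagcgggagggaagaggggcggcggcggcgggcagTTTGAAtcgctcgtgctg
The Saa3 window (chr7:46715657-46715926, minus strand) holds GAAANNGAA, the core that interferon regulatory factors bind, at -125 from the start. The Marco window (chr1:120505005-120505274, minus strand) holds GGGNNTTTC, a loose NF-kB form, at -30. The Cxcl9 window (chr5:92328060-92328329, minus strand) holds the palindromic NF-kB core GGANTTCC at -41, the loose NF-kB form at -154 on the other strand and the interferon regulatory factor core at -175. It also holds the NF-Y motif CCAAT at -65. The Heatr9 window (chr11:83522080-83522349, minus strand) holds the AP-1 motif TGANTCA at -146 and the hypoxia motif GACGTG at 10 on the other strand. The Mcm5 window (chr8:75109259-75109528, plus strand) holds the cyclic AMP response element TGACGTCA at -99. The E2F form TTTNGCGC is at -153 and, on the other strand, at -149. It also holds CCAAT at -77, -22 and 7. The Cenpf window (chr1:189688067-189688336, minus strand) holds TTTGAA, the cell cycle homology region, at 3 and the NF-Y motif CCAAT at -132 and -71.

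GAAANNGAA was in 13.3% of the windows of genes that rose at least 2-fold, 7.47% of all tested windows and 6.56% of those that fell at least 2-fold. It was in 13 of 26 windows of the antiviral interferon-stimulated genes, among them Ifit1, Isg15, Rsad2 and Bst2. GGGNNTTTC was in 7.32, 4.36 and 3.36%, GGANTTCC in 5.23, 5.91 and 4.61%, and TGANTCA in 9.42, 5.18 and 4.76% of the same 3 sets. Among the genes that rose at least 16-fold, TGANTCA was in 19.4%, and among those that fell as much in 3.66%. TTTGAA was in 12.6% of the windows of genes that rose at least 2-fold, 11.98% of all tested windows and 16.5% of those that fell at least 2-fold. At 16-fold it was in 16.1% for rises and 30.4% for falls. It was in 18 of 24 windows of the mitosis list, among them those of Cdk1, Plk1, Top2a and Mki67. CCAAT was in 44.5% of the windows of genes that fell at least 2-fold and 39.1% of all tested ones, TTTNGCGC in 3.43 and 2.42%, and TGACGTCA in 2.11 and 3.33%. GACGTG, the hypoxia motif, was in 8.98% of the windows of genes that rose at least 2-fold and 9.32% of all tested ones. Over all 27025 windows of the table, tested or not, GAAANNGAA was in 8.57%, GGGNNTTTC in 4.46%, GGANTTCC in 4.84%, TGANTCA in 7.93%, TGACGTCA in 1.88%, TTTGAA in 18.1%, CCAAT in 37.9%, TTTNGCGC in 1.38% and GACGTG in 6.35%. The median GC content was 57.7% in windows of genes that rose at least 2-fold, 60.3% in those that fell and 60.7% in all tested ones. At 16-fold it was 52.7% for rises and 58.7% for falls. Matches of different motifs can overlap, the shares were not tested, and a match is a description of the letters only.

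Of the receptor complex Tlr4 fell and its partners rose, and the adaptors rose. Tlr4 stood at 176, 169 and 163 CPM unstimulated and 132, 124 and 141 CPM with LPS. The 3 LPS values were all below the 3 unstimulated ones, a fall of 0.36 ± 0.10, adjusted p = 0.00318. Its partner Ly96 rose by 0.64 ± 0.14 and the co-receptor Cd14 by 0.68 ± 0.15, from 612, 528 and 563 to 976, 781 and 966 CPM. On total counts these rises were 0.29 ± 0.13 and 0.33 ± 0.15 and did not pass. Of the 16 genes of the receptor, adaptor and proximal kinase list 11 rose and 1 fell, with a median of 0.63. The adaptors Myd88 (0.86 ± 0.08), Ticam1 (1.12 ± 0.17) and Ticam2 (0.62 ± 0.13) all rose, as did the kinases Irak2 (1.33 ± 0.17) and Tbk1 (0.83 ± 0.10) and the ubiquitin ligase Traf3 (0.82 ± 0.08). Among other Toll-like receptors the lipopeptide receptors rose, Tlr1 from 50.1, 55.9 and 60.3 to 266, 259 and 225 CPM (2.17 ± 0.15), Tlr2 by 0.93 ± 0.20 and Tlr6 by 1.00 ± 0.10. The RNA sensors split, with Tlr3 up by 1.32 ± 0.15, Tlr7 down (-0.91 ± 0.13) and Tlr13 down (-0.32 ± 0.08, or -0.21 ± 0.08 without the unstimulated library of mouse 2). Flagellin's receptor Tlr5 fell by 2.58 ± 0.43 from a level of 2.79 ± 0.441 CPM. Of 12 members of that list 6 rose and 4 fell, with a median of 0.33 that is -0.0028 on total counts.

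Genes of the NF-kB system rose in 11 of 15 cases with 1 fall (median 1.08). Nfkbia, the inhibitor that NF-kB itself induces, stood at 56.2, 50.4 and 67.1 CPM unstimulated and 605, 477 and 316 CPM with LPS. Every LPS mouse was above every unstimulated one, with mouse 3 lowest, and the rise was 3.01 ± 0.19, adjusted p = 6.46e-13. Bcl3 (2.02 ± 0.18), Nfkbie (1.90 ± 0.16), Nfkb2 (1.56 ± 0.16), Relb (1.20 ± 0.14) and the inducible kinase Ikbke (1.67 ± 0.15) also rose. The subunits of the classical dimer did not pass, Nfkb1 at -0.01 ± 0.11 and Rela at 0.09 ± 0.11, and Rel was the 1 member that fell, (-0.36 ± 0.15). Rel did not pass without the LPS library of mouse 3 (-0.24 ± 0.16) or the unstimulated library of mouse 1 (-0.37 ± 0.17) or mouse 3 (-0.28 ± 0.16). Among proximal kinases and adaptors, Traf1 rose by 3.86 ± 0.37 and the paracaspase Malt1 by 3.16 ± 0.38. Malt1 stood at 23.6, 25.6 and 24.2 CPM unstimulated and 319, 273 and 64.6 CPM with LPS. Its LPS value in mouse 3 was far below those of mice 1 and 2, and all 3 were above the unstimulated mice.

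Genes that restrain Toll-like receptor and cytokine signals mostly rose, 16 higher and 3 lower of 21 (median 1.78). Socs3, the inhibitor of gp130 and Jak signals, stood at 2.84, 1.82 and 5.14 CPM unstimulated and 1080.1, 917 and 802 CPM with LPS. It was low in all unstimulated mice and high in all 3 LPS mice, a rise of 8.17 ± 0.30, adjusted p = 1.85e-17. Il1rn, the natural antagonist of the interleukin-1 receptor, went from 44.8, 47.5 and 32.1 to 2718, 1966 and 870.4 CPM (5.48 ± 0.37). Socs1 rose by 4.06 ± 0.19 and the kinase-dead Irak3 by 2.31 ± 0.12. The ubiquitin editing enzyme Tnfaip3 went from 14.2, 16.1 and 18.7 to 209, 175 and 88.8 CPM (3.27 ± 0.27), and the RNA decay factors Zc3h12a and Zfp36 rose by 1.98 ± 0.15 and 1.68 ± 0.23. Those that fell were Sigirr, an inhibitory member of the interleukin-1 receptor family (-1.65 ± 0.29), and the Zfp36 relatives Zfp36l2 (-1.84 ± 0.20) and Zfp36l1 (-0.76 ± 0.31). Zfp36l1 stood at 136, 142 and 218 CPM unstimulated and 58.5, 52.6 and 182 CPM with LPS, with mouse 3 inside the unstimulated range. That fall was -0.48 ± 0.32 and -0.46 ± 0.31 without the LPS library of mouse 1 or 2 and -0.50 ± 0.33 without the unstimulated library of mouse 3, none of which passed, and -1.58 ± 0.23 without the LPS library of mouse 3, which did.

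Immediate early genes, which peak within the first hour or so of stimulation, showed no common direction at 18 h, with 6 higher and 6 lower of 20 (median 0.01, or -0.33 on total counts). Fos stood at 21.4, 29.6 and 35.9 CPM unstimulated and 26.3, 34.5 and 52.6 CPM with LPS and did not pass (0.39 ± 0.26). Its groups overlapped, as did those of Jun (0.07 ± 0.15). Junb rose by 1.32 ± 0.19, Ier3 by 3.24 ± 0.25, Fosl2 by 1.07 ± 0.17 and Atf3 by 1.48 ± 0.28. Myc fell from 5.20, 9.90 and 4.64 to 1.17, 1.32 and 1.09 CPM (-2.46 ± 0.31), without overlap, and Egr2, Nr4a1, Klf2 and Ier2 fell (-2.27 ± 0.50, -1.68 ± 0.40, -1.07 ± 0.28 and -1.07 ± 0.25). Klf2 and Ier2 shared a pattern by mouse, with 6.88, 6.48 and 20.5 CPM and 5.90, 6.24 and 18.2 CPM in the LPS mice, and without mouse 3 the falls were -1.82 ± 0.20 and -1.81 ± 0.16. Of the MAP kinase phosphatases Dusp1 rose by 2.76 ± 0.19 and Dusp2 by 3.30 ± 0.30, Dusp16 by 1.02 ± 0.15, and Dusp3, Dusp6 and Dusp7 fell (-0.78 ± 0.07, -1.58 ± 0.35 and -0.81 ± 0.10).

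Of 24 cytokine genes tested 18 rose, 1 fell and 5 passed in neither direction, with a median of 2.24 (2.17 with genes without unstimulated reads at their bound). Il1b, the pyrogenic cytokine that is made as an inactive precursor, stood at 2.13, 0.313 and 2.04 CPM unstimulated and 1586, 1095 and 2029 CPM with LPS. The unstimulated mice were all near 0 and mouse 3 was the highest of the LPS mice, a rise of 10.04 ± 0.47, adjusted p = 2.91e-15. Il1a, its relative that is active without cleavage, went from 0.378, 0.0521 and 0.991 to 160.4, 128 and 48.4 CPM (7.96 ± 0.70). Tnf stood at 10.9, 14.3 and 10.6 CPM unstimulated and 72.8, 75.9 and 19.2 CPM with LPS. Mice 1 and 2 were near each other, mouse 3 was far below them yet still above the unstimulated range, and the rise was 2.23 ± 0.45, adjusted p = 0.000139. The gp130 cytokine Il6 had 2 unstimulated reads and 5.04, 5.70 and 0.973 CPM with LPS, a ratio of 110.4 (95% counting interval 30.1 to 918). Il12b, a subunit of interleukin-12 and interleukin-23, had 3 unstimulated reads and 10.5, 8.40 and 0.425 CPM with LPS, a ratio of 121 (95% counting interval 41.1 to 591), most of it in mice 1 and 2. Its partner subunits Il12a and Il23a had 4 and 3 reads over the LPS libraries. Ebi3, a subunit of interleukin-27, rose by 2.38 ± 0.15 and its partner Il27 by 3.91 ± 0.46. Ifnb1 had no unstimulated read and 1.66, 1.14 and 0.182 CPM with LPS, at least 18.7-fold higher.

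The anti-inflammatory Il10 stood at 3.21, 3.60 and 4.95 CPM unstimulated and 4.43, 3.12 and 3.40 CPM with LPS, with overlapping groups, and did not pass (-0.10 ± 0.30, adjusted p = 0.791). Tgfb1 was the cytokine that fell, from 262, 275 and 291 to 147, 147 and 210.2 CPM (-0.72 ± 0.12). Il18 and Il15 rose by 1.56 ± 0.20 and 1.03 ± 0.22, and the inhibitor Il18bp by 4.01 ± 0.25. The death ligand Tnfsf10 (TRAIL) rose by 2.24 ± 0.29. Gdf15 stood at 46.4, 37.0 and 20.2 CPM unstimulated and 241, 147 and 21.1 CPM with LPS, so the LPS value of mouse 3 lay within the unstimulated range. Its rise of 1.98 ± 0.61 was 1.29 ± 0.62 without the LPS library of mouse 1 and did not pass. Of the colony-stimulating factors Csf1 rose by 1.18 ± 0.32, with 27.7, 25.1 and 8.87 CPM with LPS against 9.69, 9.59 and 7.80 CPM and mouse 3 within the unstimulated range, and Csf2 and Csf3 had 8 and 4 LPS reads in all. Their receptors split, with Csf3r up by 3.06 ± 0.28, Csf2rb by 1.66 ± 0.20, Csf2ra down (-0.67 ± 0.15) and the macrophage survival receptor Csf1r at -0.03 ± 0.15.

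**Figure D2:**
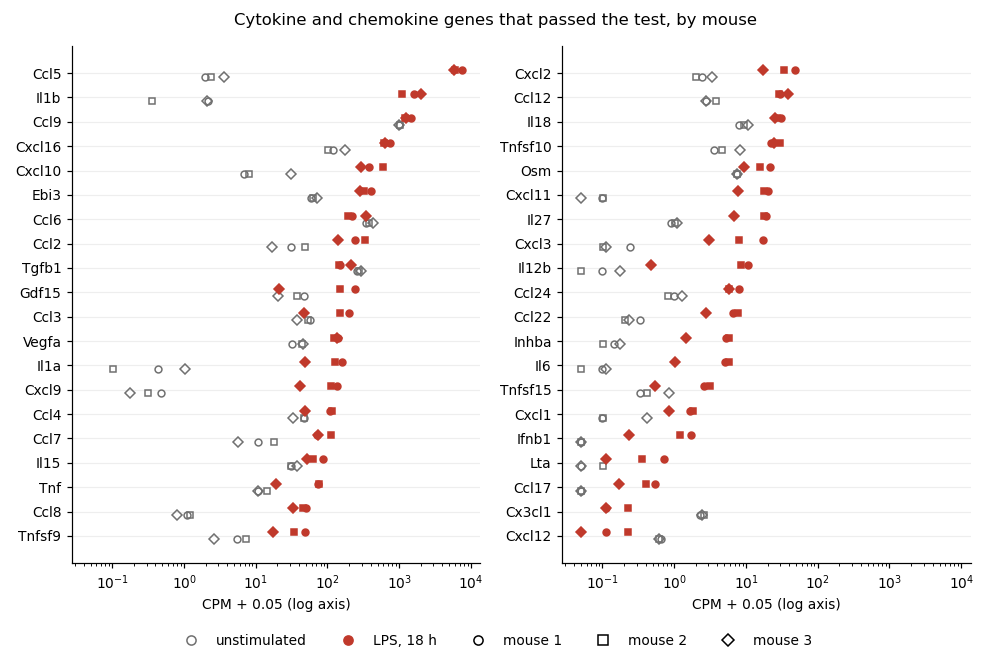
CPM + 0.05 on a log axis for the 40 cytokine and chemokine genes that passed the test, ordered by mean LPS level, open grey for unstimulated and filled red for LPS libraries, 1 symbol shape per mouse. Ccl5 and Il1b have the highest LPS levels in CPM, and in Il12b, Tnf and Gdf15 the LPS library of mouse 3 lies below those of mice 1 and 2.

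Of the chemokines, which attract leukocytes, 11 of 12 CC members rose and 1 fell (median 2.91), and 7 of 12 CXC and CX3C members rose and 2 fell (median 2.96). The monocyte attractants Ccl2 and Ccl7 stood at 245, 333 and 142 and 72.3, 113 and 74.6 CPM with LPS, and rose by 2.90 ± 0.62 and 2.91 ± 0.69. Ccl8, another ligand of monocyte receptors, went from 1.04, 1.15 and 0.743 to 49.5, 45.9 and 32.9 CPM (5.44 ± 0.33). The attractants Ccl3 and Ccl4 rose by 1.44 ± 0.36 and 1.11 ± 0.30, and their LPS values of 202, 151 and 47.5 and 109, 115 and 48.6 CPM had mouse 3 lowest, inside the unstimulated range for Ccl3. Ccl22, a ligand of Ccr4, rose by 4.72 ± 0.65. Ccl6 was the member that fell, (-0.61 ± 0.25), and it was at -0.51 ± 0.29, -0.46 ± 0.28, -0.62 ± 0.29 and -0.50 ± 0.28, not passing, without the LPS libraries of mouse 1 or 2 or the unstimulated libraries of mouse 2 or 3. Among ligands of Cxcr3, Cxcl9 went from 0.425, 0.261 and 0.124 to 135, 113 and 41.2 CPM (8.40 ± 0.50), and Cxcl10 from 6.85, 8.02 and 31.1 to 374, 597 and 298 CPM (4.80 ± 0.52). Cxcl11 had 2 unstimulated reads and 20.1, 17.9 and 7.78 CPM with LPS, a ratio of 431 (95% counting interval 119 to 3567). The 3 genes thus had their lowest LPS value in mouse 3 and no overlap. The neutrophil attractants Cxcl2 and Cxcl3 rose by 3.70 ± 0.47 and 6.42 ± 0.72, and Cxcl1 by 3.26 ± 0.60 to only 1.60, 1.80 and 0.790 CPM. Cxcl16 rose by 2.31 ± 0.16. Cx3cl1 and Cxcl12 fell (-4.52 ± 0.57 and -2.79 ± 0.78), both from low levels (2.27, 2.55 and 2.42 and 0.614, 0.573 and 0.557 CPM).

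Receptors for chemoattractants changed in both directions, 6 higher and 4 lower of 12 (median 0.73). The formyl peptide receptors, which sense bacterial peptides, went from near absence to a high level. Fpr1 stood at 0.189, 0.417 and 0.619 CPM unstimulated and 46.7, 59.2 and 96.2 CPM with LPS and Fpr2 at 0.331, 0.782 and 0.495 CPM unstimulated and 136, 126 and 140.0 CPM with LPS. Both groups were far apart in every mouse, with rises of 7.41 ± 0.47 and 7.97 ± 0.41. Ccrl2 rose by 3.02 ± 0.43 and Ccr1 by 1.99 ± 0.33. Cxcr4, the receptor of Cxcl12, fell from 140.3, 96.0 and 174 to 46.7, 21.9 and 17.4 CPM (-2.26 ± 0.38), and the monocyte receptor Ccr2 (-1.70 ± 0.38) and the complement receptor C5ar1 (-1.22 ± 0.25) also fell. Cytokine receptors were likewise split, 9 higher and 8 lower of 20 (median 0.45). Tnfrsf1b, the second receptor of TNF, went from 339, 311 and 529 to 4737, 4091 and 1969.7 CPM (3.20 ± 0.28, adjusted p = 5.48e-10). Il4ra rose by 2.97 ± 0.22, with 829, 800.5 and 1783 CPM in the LPS mice, of which mouse 3 was the highest. Il15ra (3.85 ± 0.24), Il13ra1 (2.56 ± 0.22) and Il1r1 (6.44 ± 0.51) also rose. Lifr (-3.36 ± 0.36), Il18rap (-2.62 ± 0.33) and Tgfbr1 (-0.91 ± 0.12) fell.

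The interferon arm moved mostly upward. Of the 15 interferon receptor, Jak and Stat genes 12 rose and none fell (median 0.88), of 32 antiviral interferon-stimulated genes 31 rose (median 2.17), of 13 nucleic acid sensors 11 rose (median 1.73), and all 15 tested guanylate-binding and immunity-related GTPases rose (median 2.70). Jak2, the kinase of the interferon-gamma and many cytokine receptors, stood at 38.9, 43.0 and 38.6 CPM unstimulated and 616, 519.5 and 373 CPM with LPS. The unstimulated mice were alike and the groups far apart, a rise of 3.65 ± 0.14, adjusted p = 3.58e-17. Ifnar1 rose by 1.88 ± 0.12, Ifngr2 by 1.68 ± 0.10 and Stat2 by 1.90 ± 0.19, while Ifngr1 did not pass (-0.02 ± 0.12). Irf7, which amplifies type I interferon, went from 160.2, 223 and 161 to 2971, 2657 and 2017 CPM (3.81 ± 0.27), and Irf1 rose by 1.22 ± 0.18. Irf4 was the factor of this family that fell, from 8.69, 9.85 and 15.7 to 0.799, 0.600 and 0.425 CPM (-4.22 ± 0.43). Of 8 tested interferon regulatory factors 5 rose and 1 fell (median 0.42). Irf3 did not pass, but was lower, passing, on total counts (-0.50 ± 0.10) and with mouse as a block (-0.17 ± 0.07). It also passed as lower without the LPS library of mouse 3 (-0.28 ± 0.08) or the unstimulated library of mouse 2 (-0.21 ± 0.09).

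Rsad2 (viperin), which makes a chain-terminating nucleotide, stood at 114, 137 and 237 CPM unstimulated and 1927, 2495 and 919 CPM with LPS. Mouse 3 had the highest unstimulated and the lowest LPS value without overlap, and the rise was 3.45 ± 0.51, adjusted p = 2.29e-06. Isg15, a ubiquitin-like modifier, went from 38.4, 57.4 and 39.1 to 665, 739.5 and 437 CPM (3.77 ± 0.36). Ms4a4c had the largest change of the antiviral list, from 7.75, 10.8 and 8.42 to 719, 647 and 342 CPM (5.98 ± 0.40), and Isg20, an exonuclease, rose by 4.64 ± 0.38, Oasl1 by 4.35 ± 0.40, Ifi44 by 3.84 ± 0.28 and Mx1 by 3.47 ± 0.33. Ifi27l2a was the member that did not pass (0.23 ± 0.18). Zbp1, a sensor of Z-form nucleic acid, rose by 3.24 ± 0.24, the RNA sensors Ifih1 and Ddx58 (RIG-I) by 1.79 ± 0.15 and 1.83 ± 0.18, and Ifi205 by 5.67 ± 0.37. The adaptor Tmem173 (STING) stood at 73.6, 71.1 and 79.5 CPM unstimulated and 80.2, 69.9 and 70.9 CPM with LPS, with overlap, and did not pass (-0.02 ± 0.11). Gbp2 went from 36.5, 44.6 and 47.9 to 903, 839 and 447 CPM (4.09 ± 0.29), Gbp4 rose by 4.29 ± 0.43 and Irgm1 by 1.27 ± 0.15. Counts within the Ifit, Oas and Gbp families can be split between near-identical copies and are uncertain to that extent.

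Antigen presentation rose as a block for MHC class I and unevenly for class II. All 18 class I and immunoproteasome genes rose (median 1.34). B2m went from 2588, 2719.7 and 2834 to 8359, 6703 and 5873 CPM (1.36 ± 0.12), the heavy chain H2-K1 rose by 1.29 ± 0.11, the peptide carrier Tap1 by 1.74 ± 0.17, the immunoproteasome subunit Psmb8 by 1.63 ± 0.10, and the transactivator Nlrc5 by 1.29 ± 0.18. Of 34 genes of the constitutive proteasome and its assembly 31 rose and none fell (median 0.78). Of 11 class II genes 8 rose and 1 fell (median 1.13). H2-Ab1 went from 10.3, 11.5 and 21.1 to 88.7, 60.6 and 81.7 CPM (2.44 ± 0.34), whereas its partner H2-Aa stood at 14.7, 16.5 and 27.0 CPM unstimulated and 25.0, 22.1 and 28.8 CPM with LPS and did not pass (0.39 ± 0.37). The gene that fell was Ciita, the master activator of class II, at 2.46, 2.03 and 5.82 CPM unstimulated and 0.799, 2.04 and 0.973 CPM with LPS (-1.42 ± 0.49). Its groups overlapped, and it did not pass without the LPS library of mouse 1 (-1.17 ± 0.55) or mouse 3 (-1.26 ± 0.56) or the unstimulated library of mouse 3 (-0.81 ± 0.51). The checkpoint ligand Cd274 (PD-L1) stood at 23.2, 26.1 and 34.7 CPM unstimulated and 1896, 1520.3 and 648 CPM with LPS, with mouse 3 lowest and no overlap, a rise of 5.60 ± 0.34, adjusted p = 4.30e-13. The costimulatory receptor Cd40 rose by 2.89 ± 0.28. Cd83 (-2.25 ± 0.48), Havcr2, which encodes TIM-3 (-2.95 ± 0.24), and Lgals3, which encodes galectin-3 (-1.35 ± 0.20), fell. The ligands of Cd28 differed in direction, as Cd80 fell by 0.66 ± 0.20 and Cd86 rose by 0.90 ± 0.33. Cd80 was at -0.44 ± 0.19 without the LPS library of mouse 3, and Cd86 at 0.63 ± 0.35, 0.76 ± 0.36, 0.89 ± 0.38 and 0.87 ± 0.38 without the LPS or unstimulated libraries of mouse 1 or 2, none of which passed.

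Of 19 genes of nitric oxide and itaconate chemistry, with their transporters and cofactor supply, 12 rose and 3 fell (median 0.92). Beside Nos2 and Irg1, the arginine carrier Slc7a2 went from 2.69, 3.18 and 2.91 to 198, 163 and 62.3 CPM (5.59 ± 0.47), and Ass1, which rebuilds arginine from citrulline, from 2.98, 1.77 and 1.80 to 58.4, 44.0 and 25.8 CPM (4.27 ± 0.44). Gch1, which starts synthesis of the cofactor tetrahydrobiopterin, rose by 1.47 ± 0.14. Both arginases rose from low levels (0, 0.365 and 0.0619 and 0.0473, 0.0521 and 0.495 CPM), Arg1 to 41.4, 22.7 and 39.1 CPM (7.89 ± 0.94) and Arg2 to 21.3, 12.8 and 12.2 CPM (6.40 ± 0.44). Cybb, the catalytic subunit of the phagocyte NADPH oxidase, stood at 636, 683 and 795 CPM unstimulated and 4962, 4385 and 4031 CPM with LPS, with the groups far apart (2.66 ± 0.10, adjusted p = 6.81e-17), and Ncf1 rose by 1.06 ± 0.08. Qdpr, which recycles the biopterin cofactor, fell by 0.95 ± 0.15.

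Prostaglandin and leukotriene genes moved both ways, 10 higher and 7 lower of 19 (median 0.40). Ptgs2, the inducible cyclooxygenase, stood at 0.331, 0.365 and 0.433 CPM unstimulated and 213, 121 and 20.1 CPM with LPS. The LPS mice differed widely, with mouse 3 lowest, and none came near the unstimulated level, a rise of 8.29 ± 0.76, adjusted p = 9.16e-10. Pla2g7, which degrades platelet-activating factor, rose by 4.45 ± 0.31, and the prostaglandin E receptors Ptger2 and Ptger4 by 2.47 ± 0.22 and 1.80 ± 0.29, while the receptor Ptger3, at 0.662, 0.521 and 0.495 CPM unstimulated, fell by 2.43 ± 0.76. The constitutive cyclooxygenase Ptgs1 fell from 22.8, 19.4 and 25.3 to 2.46, 2.04 and 4.19 CPM (-2.95 ± 0.26). Hpgd, which breaks prostaglandins down, fell from 47.1, 27.5 and 50.9 to 0.123, 0.120 and 0.365 CPM (-7.66 ± 0.49), and the prostaglandin D synthase Hpgds from 313, 324 and 299.6 to 59.0, 76.6 and 92.5 CPM (-2.04 ± 0.16). Alox5 and Ltc4s, which make leukotrienes, fell (-3.60 ± 0.40 and -1.44 ± 0.32).

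Acute-phase and antimicrobial protein genes rose in 13 of 18 cases (median 4.97, or 4.66 with genes without unstimulated reads at their bound). Besides the serum amyloids, Hp and Lcn2, the copper oxidase Cp went from 1.18, 2.14 and 4.71 to 489, 469 and 493 CPM (7.54 ± 0.48) and the protease inhibitor Slpi from 0.0473, 0.104 and 0.124 to 23.2, 18.1 and 12.5 CPM (7.60 ± 0.42). Slc11a1, the metal pump of phagosomes, rose by 2.25 ± 0.11. Lyz2 stood at 11309, 10472 and 13769 CPM unstimulated and 13462, 11387 and 21074 CPM with LPS, with overlap, and did not pass (0.37 ± 0.31). Complement genes were mixed, 7 higher and 4 lower of 19 (median 0.43). C3 stood at 38.6, 35.5 and 44.5 CPM unstimulated and 2169, 1847 and 1005 CPM with LPS, with mouse 3 lowest of the LPS mice and no overlap (5.40 ± 0.33, adjusted p = 6.14e-13). C1ra, a protease of the classical pathway, rose by 3.26 ± 0.27. The C1q chains passed in neither direction, C1qa at 0.08 ± 0.37.

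Of 15 inflammasome and pyroptosis genes 10 rose and 3 fell (median 0.77), and of 25 apoptosis and necroptosis genes 16 rose and 5 fell (median 0.67). Casp1 and Casp4, which cut the pore former Gsdmd, rose by 1.53 ± 0.19 and 1.92 ± 0.19, and Gsdmd by 1.49 ± 0.09. Nlrp3 stood at 56.5, 67.3 and 62.4 CPM unstimulated and 65.1, 70.6 and 79.4 CPM with LPS. Its groups overlapped and it did not pass (0.21 ± 0.18). Mefv (pyrin) rose from 0.284, 0.365 and 0.991 to 13.4, 11.8 and 25.4 CPM (5.00 ± 0.36). The death regulators Cflar and Birc3 rose by 2.62 ± 0.19 and 2.37 ± 0.13, the death receptor Fas by 2.98 ± 0.21, and the necroptosis executor Mlkl by 2.11 ± 0.22, while its activating kinase Ripk3 did not pass (-0.24 ± 0.14). The death promoters Bbc3 and Bcl2l11 and the caspase inhibitor Xiap fell (-0.77 ± 0.17, -0.56 ± 0.15 and -0.32 ± 0.06).

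Genes of glucose metabolism rose with few exceptions, 20 of 23 genes of glycolysis and glucose uptake with no fall (median 1.36). Pfkfb3, which makes the activator of phosphofructokinase, stood at 22.2, 21.9 and 19.2 CPM unstimulated and 784, 617 and 861 CPM with LPS. The groups were far apart, with mouse 2 lowest of the LPS mice, a rise of 5.16 ± 0.19, adjusted p = 1.63e-17. The glucose carrier Slc2a1 went from 30.5, 47.6 and 25.1 to 312, 199 and 262 CPM (2.90 ± 0.23), the lactate exporter Slc16a3 rose by 2.85 ± 0.25, the hexokinase Hk2 by 2.97 ± 0.21 and Ldha by 1.64 ± 0.20. Pfkp, the platelet form of phosphofructokinase, did not pass (0.18 ± 0.16). The hypoxia-inducible factor Hif1a stood at 72.5, 79.9 and 59.0 CPM unstimulated and 414, 354 and 524 CPM with LPS, with mouse 3 highest (2.61 ± 0.13, adjusted p = 1.22e-14), and 14 of 16 genes of its pathway rose (median 1.44), Egln3 by 4.31 ± 0.46 and Ero1l by 2.42 ± 0.18. The 2 that fell were Epas1 (HIF-2 alpha, -2.08 ± 0.24) and Ndrg1 (-1.76 ± 0.18). In the pentose phosphate pathway 4 of 8 rose, among them Taldo1 (1.09 ± 0.15) and G6pdx (1.01 ± 0.13), and the sedoheptulose kinase Shpk did not pass (-0.04 ± 0.19). That list's median was 0.30 and -0.04 on total counts.

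Nuclear genes of mitochondrial metabolism changed little on balance. In the tricarboxylic acid cycle 10 rose and 5 fell of 25 (median 0.15, or -0.19 on total counts). Citrate synthase Cs (0.62 ± 0.08), the citrate carrier Slc25a1 (0.89 ± 0.10) and Mdh2 (0.81 ± 0.08) rose, and Fh1 (fumarase, -1.02 ± 0.10), Suclg2 (-1.48 ± 0.20), Idh2 (-0.80 ± 0.15) and Idh3g (-0.65 ± 0.08) fell. Nuclear-encoded respiratory chain genes had 24 higher and 4 lower of 73 (median 0.12, or -0.23 on total counts), while 11 of the 13 mitochondrially encoded messages fell (median -0.72) and none rose. The mitochondrially encoded share of all counts went from 1.63 ± 0.0662% to 1.06 ± 0.145%.

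Iron genes pointed both ways, 10 higher and 8 lower of 21 (median 0.01, or -0.33 on total counts). Hmox1, which opens heme, stood at 328, 316 and 295 CPM unstimulated and 8309, 5955 and 2452 CPM with LPS. All 3 LPS mice were above all unstimulated ones, and mouse 3 was the lowest of the LPS mice (4.15 ± 0.33, adjusted p = 8.26e-11). Fth1 rose by 2.59 ± 0.13, and the importers Slc39a14 and Slc11a2 by 2.52 ± 0.18 and 2.16 ± 0.15. The exporter Slc40a1 (ferroportin) fell from 417, 326 and 371 to 123, 90.7 and 31.1 CPM (-2.18 ± 0.40), and the hemoglobin scavenger receptor Cd163 also fell (-2.30 ± 0.43). Among redox genes 15 of 23 rose and 4 fell (median 1.17). Sod2, the mitochondrial superoxide dismutase, stood at 54.1, 50.9 and 48.6 CPM unstimulated and 1265, 1153 and 1101 CPM with LPS. The mice of each group were close to each other and the groups far apart (4.52 ± 0.16, adjusted p = 5.80e-18). Prdx5 rose by 4.22 ± 0.15 and Prdx1 by 2.68 ± 0.30, the latter with 8190.4, 6095 and 2229 CPM in the LPS mice. The cystine carrier Slc7a11 rose by 4.82 ± 0.50 and Gclm by 2.41 ± 0.30, while the factor Nfe2l2 itself fell by 0.55 ± 0.09, Nqo1 did not pass (0.64 ± 0.34, but 1.00 ± 0.30, passing, without the LPS library of mouse 3) and Gpx1 and Gpx3 fell (-1.08 ± 0.17 and -1.93 ± 0.26). In 18 of 21 redox genes of at least 20 CPM the LPS value of mouse 3 was below the mean of mice 1 and 2. The same held for 32 of 34 constitutive proteasome genes, 25 of 29 lysosomal genes and 12 of 13 nucleic acid sensors. It also held for 19 of 23 Golgi and vesicle coat genes, 14 of 16 V-ATPase genes and 46 of 62 cytosolic ribosomal protein genes. It held for 28 of 64 nuclear-encoded respiratory chain genes and 24 of 55 mitochondrial ribosomal protein genes. No share over all genes of at least 20 CPM stands beside these counts. A difference of the whole library and one of these lists cannot be told apart from them. Metallothionein Mt1 fell by 1.42 ± 0.13 and the copper carrier Slc31a2 rose by 2.90 ± 0.14.

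Most protein folding and export genes rose, by smaller amounts. Of 23 endoplasmic reticulum chaperone and unfolded protein response genes 19 rose and 1 fell (median 0.69), of 24 Golgi and vesicle coat genes 21 rose and none fell (median 0.59), and of 17 heat shock chaperones 13 rose and 1 fell (median 0.61). On total counts these medians were 0.35, 0.25 and 0.26. Xbp1, the factor of secretory expansion, stood at 182, 167 and 143 CPM unstimulated and 343, 309 and 317 CPM with LPS, without overlap (0.98 ± 0.07, adjusted p = 2.30e-11). Hyou1 rose by 1.64 ± 0.15, Manf by 1.57 ± 0.18, Calr by 1.23 ± 0.14 and the coat protein Sec24d by 1.08 ± 0.09. Of 24 ATF4 and amino acid genes 13 rose and 4 fell (median 0.53). Nupr1 rose by 3.69 ± 0.25, Mthfd2 by 2.46 ± 0.26, Ddit3 by 1.58 ± 0.26 and Atf4 by 1.32 ± 0.18, and Psat1 and Shmt2 of serine and folate metabolism fell (-1.51 ± 0.23 and -1.35 ± 0.23).

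Sterol genes showed no common direction. Of 25 cholesterol synthesis genes 7 rose and 6 fell (median 0.06, or -0.29 on total counts). Mvd, a decarboxylase of the mevalonate pathway, rose from 48.0, 43.6 and 30.5 to 128, 111 and 79.6 CPM (1.38 ± 0.15), while Sqle did not pass (-0.14 ± 0.20), and Scap fell by 0.98 ± 0.12. Of 16 LXR target and efflux genes 9 rose and 1 fell (median 0.42). Nr1h3 (LXR alpha) stood at 8.08, 9.07 and 13.7 CPM unstimulated and 50.9, 53.9 and 68.6 CPM with LPS, without overlap (2.50 ± 0.20, adjusted p = 1.10e-10), and Abca1 rose by 0.82 ± 0.21 (0.52 ± 0.20 without the LPS library of mouse 3) while Abcg1 and Apoe did not pass (-0.14 ± 0.13 and -0.32 ± 0.55). With mouse as a block Apoe was at -0.39 ± 0.14 and passed, and on total counts Abca1 was at 0.50 ± 0.23 and did not. The oxysterol enzyme Ch25h itself stood at 2.22, 2.24 and 1.42 CPM unstimulated and 1.23, 2.34 and 0.973 CPM with LPS, with overlap, and did not pass (-0.38 ± 0.60, adjusted p = 0.599). Cyp27a1, which makes 27-hydroxycholesterol, fell from 56.9, 44.0 and 96.1 to 6.21, 7.32 and 18.9 CPM (-2.60 ± 0.39). The oxysterol-guided migration receptor Gpr183 fell from 24.6, 33.5 and 32.1 to 6.09, 6.72 and 5.65 CPM (-2.29 ± 0.36). Osbp, the oxysterol-binding protein that the compounds of the series bind, rose by 0.26 ± 0.09, did not pass without the LPS library of mouse 2 (0.22 ± 0.10) and was at -0.08 on total counts.

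Fatty acid and lipid droplet genes split evenly, 12 higher and 11 lower of 30 (median -0.0016, or -0.34 on total counts). Acsl1, which activates long-chain fatty acids, stood at 51.6, 52.5 and 46.7 CPM unstimulated and 1383, 1385 and 743 CPM with LPS, with mouse 3 lowest of the LPS mice and no overlap (4.54 ± 0.19, adjusted p = 3.32e-16). The fatty acid binder Fabp5 rose by 1.87 ± 0.21. Pparg fell from 44.6, 46.3 and 50.5 to 9.10, 10.6 and 6.08 CPM (-2.45 ± 0.19), and the lipase Lpl (-0.92 ± 0.16), the droplet coat protein Plin2 (-0.89 ± 0.13) and the fatty acid receptor Cd36 (-0.64 ± 0.14) fell too. The ceramide synthase Cers6 rose by 2.04 ± 0.09 while Cers4 and Cers5 fell (-1.82 ± 0.18 and -1.06 ± 0.09), and the neutral sphingomyelinase Smpd3 fell by 5.04 ± 0.60.

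Surface receptors for uptake changed in both directions, 7 higher and 9 lower of 23 scavenger and efferocytosis genes (median -0.15). Marco stood at 0.898, 1.09 and 0.991 CPM unstimulated and 290.5, 457 and 547 CPM with LPS. It went from about 1 CPM in each mouse to a high level, highest in mouse 3 (8.76 ± 0.41, adjusted p = 2.68e-15). Clec4e (Mincle, which senses mycobacterial glycolipid) went from 36.3, 29.1 and 22.9 to 3524, 2952 and 1305 CPM (6.46 ± 0.54), and Msr1 rose by 2.93 ± 0.27. Mrc1, the mannose receptor, stood at 1983, 2209 and 1640.0 CPM unstimulated and 135, 152 and 248 CPM with LPS, a fall of 3.45 ± 0.28, adjusted p = 1.23e-10 that left no overlap. Gas6, a bridge to apoptotic cells, went from 1557, 1426 and 1341 to 146, 134 and 156 CPM (-3.31 ± 0.13). Trem2 (-2.18 ± 0.22), Stab1 (-1.68 ± 0.19) and Clec10a (-3.66 ± 0.33) fell, while Mertk did not pass (-0.15 ± 0.21). Fc receptor and phagocytosis genes rose in 12 of 16 cases with 1 fall (median 1.35), with Fcgr1 at 1649, 1585 and 1453 CPM with LPS (2.99 ± 0.29), Fcgr2b up by 3.17 ± 0.23 and Fcgr4 by 3.29 ± 0.23. The neonatal receptor Fcgrt fell by 1.17 ± 0.23.

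Genes used to describe macrophage states did not follow 1 axis, with 11 higher and 11 lower of 23. Cd38, an NAD glycohydrolase, stood at 0.520, 0.573 and 1.05 CPM unstimulated and 296, 290.3 and 414 CPM with LPS (8.89 ± 0.58, adjusted p = 1.61e-12), and Gpr84 rose by 3.71 ± 0.46, while Egr2 fell, and of genes often used for alternatively activated cells Mrc1 fell, Arg1 rose and Chil3 fell by 1.49 ± 0.50 (-1.10 ± 0.52, not passing, without the LPS library of mouse 1). The lysophosphatidylserine receptor Gpr34 fell from 20.7, 23.4 and 34.1 to 0.184, 0.300 and 0.122 CPM (-6.98 ± 0.60) and the Fc receptor-like Fcrls fell as well (-2.34 ± 0.28), while the lipid receptor Gpr18 rose by 4.53 ± 0.39. Lineage factors included rises of Cebpb (2.66 ± 0.20), Nfil3 (3.37 ± 0.16) and Batf (3.66 ± 0.23) and falls of Maf (-1.53 ± 0.24), Mef2c (-1.41 ± 0.21) and Cebpa (-1.01 ± 0.24). Lysosomal genes gave 13 higher and 3 lower of 30 (median 0.08, or -0.26 on total counts), led by Ctsc (2.02 ± 0.19), Ctsh (2.04 ± 0.21) and Ctsz (1.68 ± 0.10), with Ctsd not passing (-0.01 ± 0.12). In the V-ATPase the subunits Atp6v0a1 and Atp6v0d2 fell (-2.10 ± 0.14 and -2.29 ± 0.34), and 7 of 16 members rose (median 0.11, or -0.24 on total counts).

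Adhesion and matrix genes gave individual large changes. The integrin chain Itgal went from 6.57, 6.83 and 5.33 to 218, 231 and 278 CPM (5.28 ± 0.33), Icam1, its ligand, rose by 1.80 ± 0.13, and Itga5 by 2.20 ± 0.21, while Itgb3 (-3.24 ± 0.46) and the hyaluronan receptor Cd44 (-0.70 ± 0.12) fell. The matrix proteoglycan Vcan went from 0.614, 0.782 and 0.495 to 28.3, 27.2 and 23.2 CPM (5.36 ± 0.21), the protease inhibitor Timp1 rose by 6.12 ± 0.56 and coagulation factor F10 by 5.00 ± 0.51. The plasminogen activator Plau (-2.07 ± 0.38) and the inhibitor Timp2 (-1.65 ± 0.27) fell. The adenosine receptors Adora2a and Adora2b rose from 0.142, 0.104 and 0.619 and 1.98, 2.19 and 2.11 CPM to 44.4, 37.8 and 12.2 and 48.2, 29.7 and 13.4 CPM (6.85 ± 0.49 and 3.86 ± 0.42), and the ectonucleotidase Entpd1 fell by 1.47 ± 0.26. In the circadian clock 4 rose and 8 fell of 14 (median -0.48), with Dbp among the falls (-1.66 ± 0.34) and Per1 and Cry1 among the rises (1.10 ± 0.19 and 1.49 ± 0.15).

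**Figure D3:**
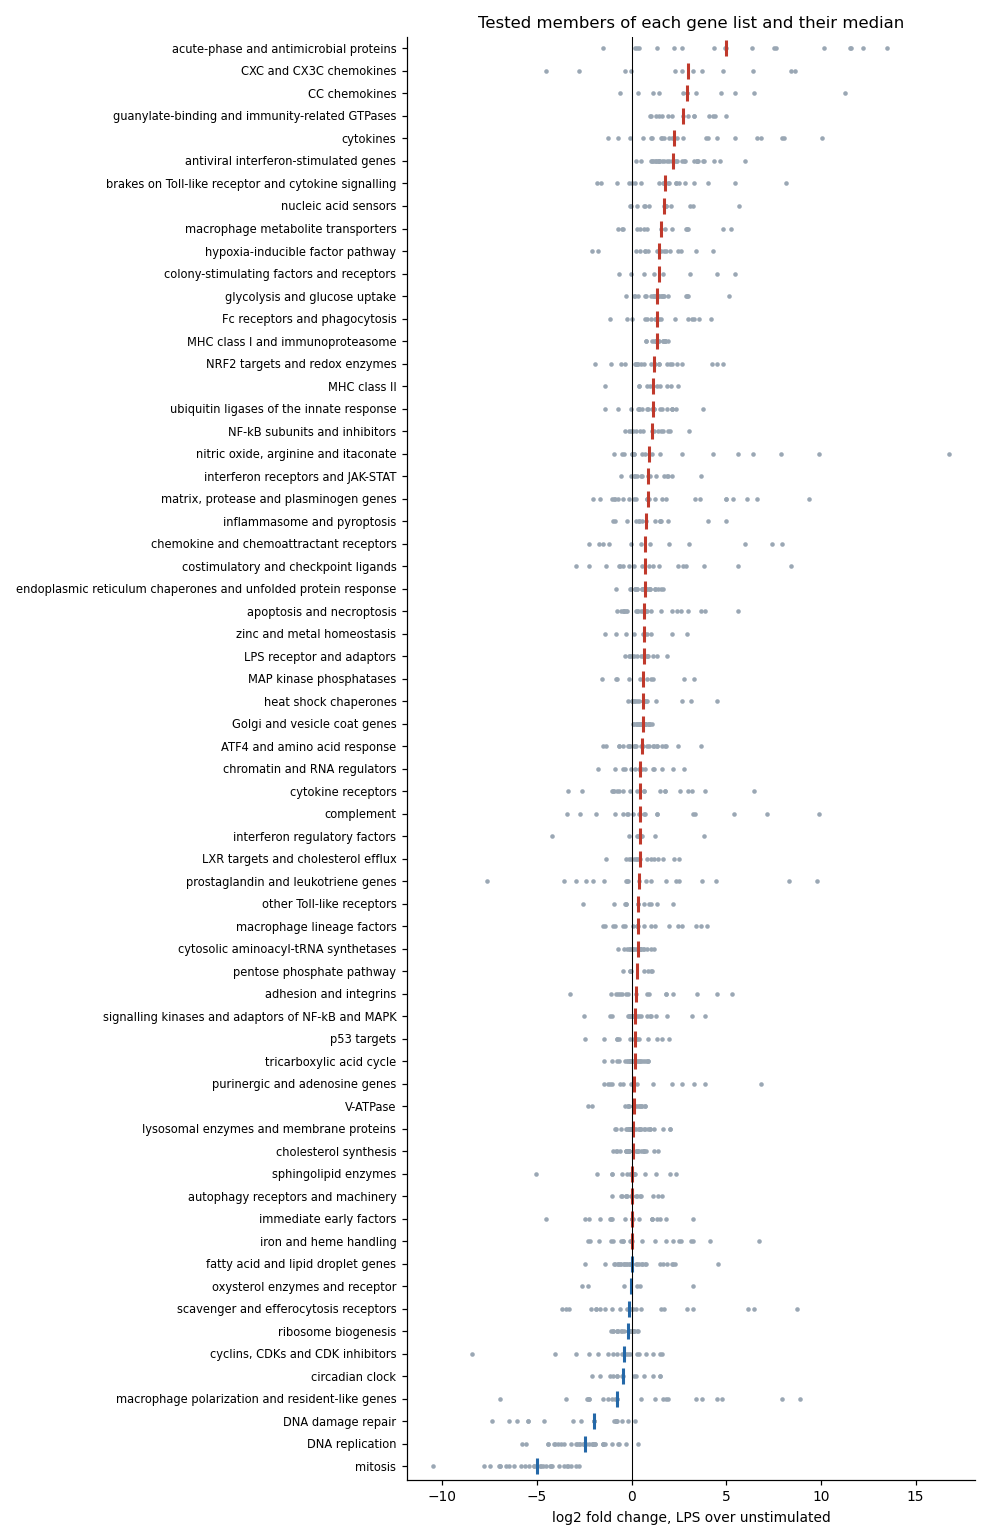
Log2 fold change with LPS of every tested member (grey points) of 64 gene lists, ordered by median (vertical bars, red above 0 and blue below 0). Acute-phase and antimicrobial proteins have the highest median (4.97) and mitosis the lowest (-5.01), where all 28 members fell.

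Genes of cell division fell together. All 28 mitosis genes fell, with log2 fold changes of -10.51 to -2.80 (median -5.01), 30 of 32 replication genes fell and 1 rose (median -2.48), and 18 of 20 DNA repair genes fell (median -1.99). The mitotic kinase Plk1 stood at 85.2, 86.0 and 74.6 CPM unstimulated and 0.307, 0.600 and 0.182 CPM with LPS, and fell by 7.80 ± 0.21, adjusted p = 4.30e-20. Top2a, which untangles replicated DNA, went from 394, 419.7 and 358 to 11.7, 9.89 and 10.9 CPM (-5.17 ± 0.11). Cdk1, the central mitotic kinase, fell less, from 136, 144 and 125 to 15.9, 15.4 and 13.01 CPM (-3.19 ± 0.12), and Mki67 from 322, 341 and 294 to 32.6, 38.4 and 17.0 CPM (-3.44 ± 0.30). The LPS mice thus lay near 0 for Ccna2, Plk1 and the spindle proteins and clearly above 0 for Cdk1 and Mki67, in all 3 mice. In replication, the ribonucleotide reductase subunit Rrm2 (-5.56 ± 0.19), the helicase subunit Mcm5 (-4.41 ± 0.26) and the polymerase Pole (-5.81 ± 0.32) fell. The clamp Pcna stood at 189, 212 and 142 CPM unstimulated and 187, 157 and 97.7 CPM with LPS, with overlap, and did not pass (-0.30 ± 0.18, but -0.49 ± 0.19, passing, without the LPS library of mouse 1). E2f1 was the replication gene that rose (0.31 ± 0.12), but it was at -0.04 on total counts, and at 0.19 ± 0.13, 0.32 ± 0.14 and 0.25 ± 0.14, not passing, without the LPS library of mouse 1 or the unstimulated library of mouse 1 or 3. Among repair genes Fancd2 fell by 6.08 ± 0.31.

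Regulators of the cycle were mixed, 4 higher and 10 lower of 19 (median -0.42). The growth factor sensor Ccnd1 fell by 2.27 ± 0.37 with 189, 325 and 102 CPM unstimulated and 35.1, 56.0 and 36.6 CPM with LPS, and cyclin E2 (Ccne2) also fell (-4.06 ± 0.31). Ccnd3 rose by 1.11 ± 0.17. The inhibitor Cdkn1a (p21) stood at 438, 454 and 401 CPM unstimulated and 1557, 1469 and 954 CPM with LPS, without overlap (1.62 ± 0.21, adjusted p = 3.73e-07), while Cdkn2c fell by 2.96 ± 0.22 and Cdkn1b did not pass (-0.17 ± 0.12). Of p53 targets Mdm2 rose by 1.34 ± 0.28 and Sesn1 fell by 2.46 ± 0.28, and Trp53 itself fell by 0.66 ± 0.10. Of 21 ribosome biogenesis genes 8 fell and none rose (median -0.20), among them nucleolin, Ncl (-0.79 ± 0.07), and of 82 cytosolic ribosomal protein genes 43 fell and 5 rose (median -0.29). Kinesins held 20 that fell and 9 that rose of 34 (median -1.21).

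Further gene families were counted in the same way. Of 7 Schlafen genes, growth regulators that interferon induces, 6 rose (median 1.62), Slfn1 from 2.03, 3.13 and 3.78 to 128, 122 and 96.8 CPM (5.29 ± 0.41) and Slfn4 by 5.08 ± 0.57. All but 1 of 9 tested Ms4a genes, which encode membrane proteins of leukocytes, rose (median 1.72), Ms4a6d by 3.61 ± 0.16. In the TRIM family, which includes many ubiquitin ligases, 18 rose and 13 fell of 45 (median 0.06, or -0.28 on total counts), with Trim30d among the rises (2.15 ± 0.15) and Trim59 among the falls (-2.73 ± 0.12). Of 20 ubiquitin system genes of the innate response 17 rose and 1 fell (median 1.11), with Rnf19b at 2.32 ± 0.17, Peli1 at 1.86 ± 0.14 and Cblb as the member that fell (-1.40 ± 0.15). Of 19 nuclear pore genes 10 fell and 4 rose (median -0.58), with Nup210 the lowest (-3.64 ± 0.30). Among chromatin and RNA regulators the demethylase Kdm6b rose by 2.74 ± 0.24 and the methyltransferase Ezh2 fell by 1.76 ± 0.12, from 54.5, 58.8 and 43.9 to 17.6, 16.7 and 12.3 CPM. Solute carriers gave 85 that rose and 74 that fell of 215 (median 0.01, or -0.32 on total counts), and Rab GTPases 20 and 11 of 52 (median 0.15, or -0.17 on total counts), with Rab20 at 2.55 ± 0.16 and Rab40b at -6.84 ± 1.13. Of 399 long non-coding RNAs 84 rose and 78 fell, and of 12454 protein-coding genes 3924 and 3820.

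Chromosomal neighbours often changed together. Among 1421 protein-coding genes that rose at least 2-fold, the next protein-coding gene tested also rose at least 2-fold in 374 cases, 26.3%, where 11.4% of all such genes did. For falls it was 292 of 1623, 18.0%, where 13.1% did. Neighbouring members of 1 gene family, and reads shared between near-identical copies, are part of these counts. Runs of at least 4 neighbours in GENCODE vM21 (GRCm38) included Saa3, Saa4, Saa1 and Saa2 on chromosome 7 (46711998 to 46754313), with log2 fold changes of 6.53 to 13.49, and Ccl2, Ccl7, Ccl12 and Ccl8 on chromosome 11 (82035571 to 82116799), with 2.90 to 5.44. Clec4a2, Clec4n, Clec4d and Clec4e formed a run on chromosome 6 (123106428 to 123289870), with 1.05 to 6.46 (Clec4a2, the lowest, did not pass without the LPS library of mouse 3, at 0.67 ± 0.33), and C1rl, C1ra, C1s1 and C1rb another on that chromosome (124493113 to 124581171), with 3.26 to 7.14. A run of 9 genes on chromosome 17 (34119541 to 34269419) spanned the class II region from H2-DMa to H2-Ab1 with Psmb8, Psmb9, Tap1 and Tap2, with 1.05 to 2.44. Among falls, Abcb1a, Abcb1b and Abcb4, which encode drug and lipid exporters, lay with Rundc3b on chromosome 5 (8490334 to 8959231), with -3.16 to -1.65.

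The LPS library of mouse 3 stood apart from the other LPS libraries in many genes. Among 7142 genes of at least 20 CPM, that library was at least 2-fold below the other LPS mice in 160 and above them in 45, against 16 and 50 for mouse 1 and 7 and 9 for mouse 2. Over the 1025 list members that changed and had at least 10 CPM with LPS, the ratio of SD to mean had a median of 0.142 with LPS and 0.0877 unstimulated. The most even LPS levels were those of Slc29a3 (117, 119 and 119 CPM), Pdia6 (469.6, 463 and 470.2 CPM), Cd44, Fen1 (26.0, 25.6 and 25.6 CPM) and Dgat1 (22.3, 22.7 and 22.8 CPM). The most uneven were those of Slc13a3 (9.10, 11.3 and 71.8 CPM), Thbs1 (94.1, 130.4 and 443 CPM), Ptgs2, Gdf15 and Slamf1 (107, 67.8 and 9.91 CPM). Slc13a3, a carrier of dicarboxylates such as itaconate, and Thbs1, a matrix glycoprotein, had their highest value in mouse 3, and the other 3 their lowest there. Without the LPS library of mouse 3 the rise of Slc13a3 was 1.38 ± 0.53 in place of 2.97 ± 0.65. Slc29a3 rose by 0.43 ± 0.13, and by 0.33 ± 0.15, not passing, without the unstimulated library of mouse 2 (0.10 ± 0.13 on total counts). By list, mouse 3 was at least 2-fold below the other LPS mice in 7 of 21 redox genes, 6 of 15 costimulatory and checkpoint genes, 4 of 12 cytokines and 3 of 6 CXC and CX3C chemokines of at least 20 CPM, and in none of 13 NF-kB, 14 interferon receptor and 18 MHC class I genes.

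**Figure D4:**
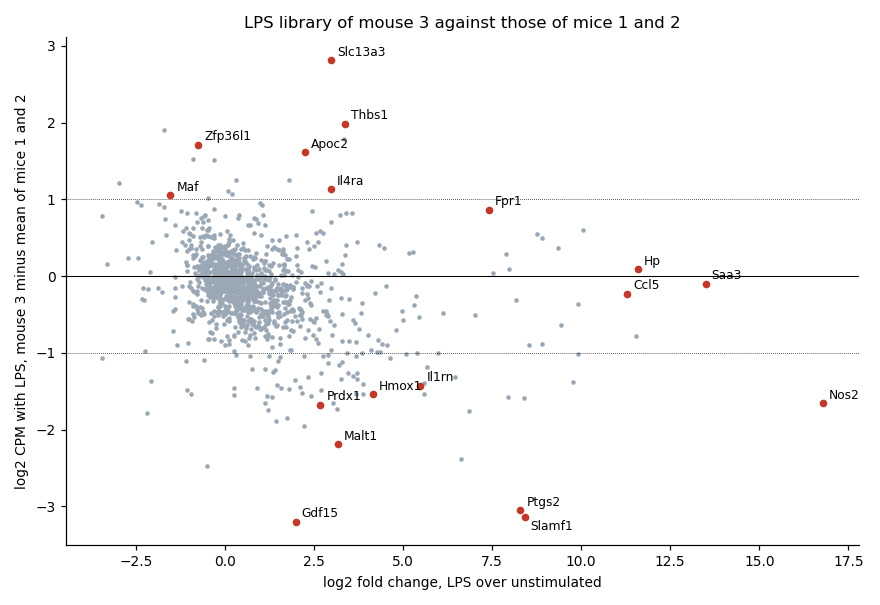
For 1252 genes of the lists and named genes with a mean of at least 20 CPM with LPS, the log2 fold change with LPS (horizontal axis) and the log2 CPM of the LPS library of mouse 3 minus that of the mean of mice 1 and 2 (vertical axis), with dotted lines at 2-fold. Of these genes 76 lie at or below the lower line and 16 at or above the upper one, with Gdf15, Slamf1 and Ptgs2 lowest and Slc13a3 highest of the labelled genes.

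The same contrast was available in Ch25h-/- cells, whose 3 mice are other animals, likewise at 18 h of LPS against 0 h. All 6 of those libraries hold odd and even counts, unlike the 6 wild-type ones, so a difference in counting goes with genotype and the effects of both cannot be told apart, although halving the even-only libraries left the count below at 0. The difference between the responses of the 2 genotypes passed for 0 of 13173 genes (0%) in edgeR, with 1476 genes (11.2%) at an unadjusted p under 0.05 and 7 genes passing in DESeq2. Leaving out the LPS library of mouse 3 of the wild type gave 296 genes with a higher and 420 with a lower response in Ch25h-/- cells, while leaving out any other library gave 0 to 2. Of the 1520 genes that rose at least 2-fold in wild-type cells, 1162 did so in Ch25h-/- cells (76.4% of the former and 85.5% of the latter's 1359), and of the 1724 that fell 1333 did (77.3%, and 82.6% of 1614). Saa3 rose by 15.45 ± 0.77 in Ch25h-/- cells and 13.49 ± 0.71 in wild-type cells, Ccl5 by 11.02 ± 0.30 and 11.28 ± 0.30, Il1b by 10.01 ± 0.48 and 10.04 ± 0.47, and Tnf by 1.16 ± 0.47 and 2.23 ± 0.45. With LPS, Saa3 took up 3.36 ± 0.337% of counts in Ch25h-/- cells and 3.45 ± 0.166% in wild-type cells. Its unstimulated shares were 9.08e-05 ± 6.85e-05% and 0.00038 ± 0.000242%, near the floor of detection, and the 2 rises differ there. Mitosis genes had a median of -5.23 in Ch25h-/- cells and -5.01 in wild-type cells, and antiviral genes 2.68 and 2.17. These values stand side by side, and an absent call does not show that the responses are alike.

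With 25HC pretreatment the LPS response differed from that of untreated cells in 1620 genes (12.3%), 704 higher (5.34%) and 916 lower (6.95%), with 3660 genes at an unadjusted p under 0.05. The labels number the wild-type mice of both treatments 1 to 3. For the untreated cells they give no vehicle and no 18 h pretreatment. The effects of 25HC, of its vehicle and of pretreatment time thus cannot be told apart. The 25HC-pretreated unstimulated library of mouse 3 also holds odd counts, unlike the other 11 libraries compared, and with even counts halved 1573 genes differed. The count was 1062 and 889 without the 25HC-pretreated LPS library of mouse 1 or 2, 1037 and 1030 without the pretreated unstimulated library of mouse 1 or 2, 1014 without the untreated unstimulated library of mouse 3, and 903 with the 4 compared groups fitted alone. Of the 1520 genes that rose at least 2-fold in untreated cells 1158 did so after 25HC (76.2%, and 75% of 1544), and 1375 of the 1724 that fell (79.8%, and 68.6% of 2003). Genes were ranked here among those averaging a log2 CPM of at least 2 over all 30 libraries. A gene can pass that average through groups where it is high. Of those whose responses by mouse did not overlap, Il1b had the second largest difference upward. It rose by 14.43 ± 0.56 after 25HC and by 10.04 ± 0.47 without it, a difference of 4.39 ± 0.61 (adjusted p = 6.73e-05). Its unstimulated level in untreated cells was low. Whether this difference and those below lie in the unstimulated or the LPS levels was not tested. Cxcl1 rose by 7.87 ± 0.42 against 3.26 ± 0.60, Il1a by 12.19 ± 0.77 against 7.96 ± 0.70 and Thbs1 by 7.51 ± 0.53 against 3.36 ± 0.43. Id3, an inhibitor of basic helix-loop-helix factors, did not pass in untreated cells (-0.34 ± 0.36) and rose by 3.41 ± 0.39 after 25HC. On the other side, Olfml3, a secreted matrix protein, rose by 1.92 ± 0.57 in untreated cells (1.40 ± 0.63, not passing, without the LPS library of mouse 3) and was at -3.60 ± 0.53 after 25HC, Il18rap went from -2.62 ± 0.33 to -6.65 ± 0.49 and Cx3cr1 from -1.53 ± 0.53 to -4.97 ± 0.57. In untreated cells Cx3cr1 did not pass without the LPS library of mouse 1 (-1.21 ± 0.58) or 2 (-1.35 ± 0.61) or the unstimulated library of mouse 3 (-1.35 ± 0.58). The response of Gm5150, a member of the Sirpb1 cluster, was 3.33 ± 0.59 without and 0.17 ± 0.67 with 25HC. Without the untreated unstimulated library of mouse 3 the differences of Cxcl1 and Il1a were 3.16 ± 1.77 and 3.23 ± 1.49 and did not pass. That of Gm5150 was -2.85 ± 0.93, -2.91 ± 0.95, -2.30 ± 0.81 and -2.93 ± 0.94, not passing, without the 25HC-pretreated LPS library of mouse 1 or 2, the untreated LPS library of mouse 3 or the untreated unstimulated library of mouse 1.

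By group, 17 of the 32 antiviral genes differed after 25HC (medians 3.22 with and 2.17 without), as did 9 of the 15 guanylate-binding and immunity-related GTPases (3.99 and 2.70), 12 of the 21 brakes on signalling (2.11 and 1.78), 11 of 23 endoplasmic reticulum genes (0.16 and 0.69) and 11 of 30 fatty acid genes (-0.17 and -0.0016), each to be read against the 12.3% of all genes. Of the 24 cytokines 5 differed (3.32 and 2.24), of 28 mitosis genes 7 (-5.36 and -5.01) and of 23 glycolysis genes 1 (1.08 and 1.36). In the LPS receptor list 3 of 16 differed and in the MAP kinase phosphatase and heat shock lists none did.

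**Figure D5:**
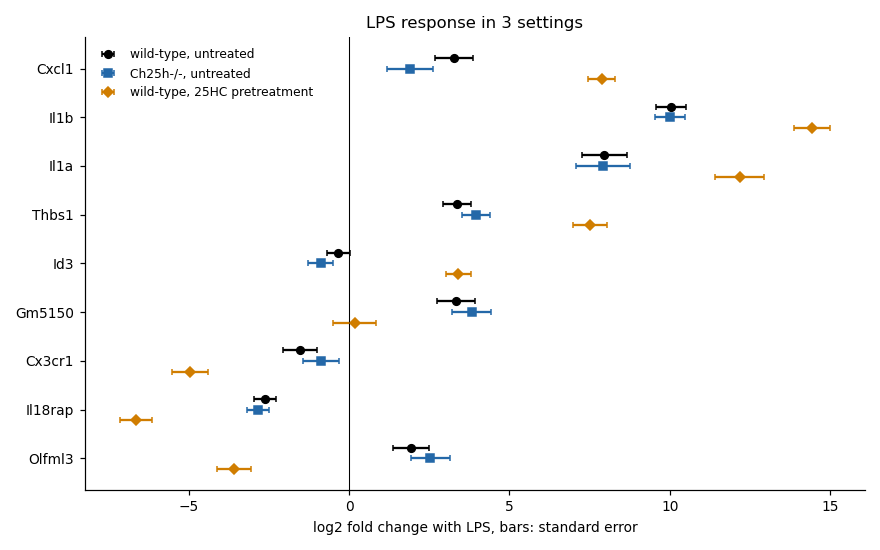
Log2 fold change with LPS and its standard error in untreated wild-type (black), untreated Ch25h-/- (blue) and 25HC-pretreated wild-type cells (orange) for 9 of the genes with the largest differences of the 25HC response. The orange points stand to the right of the black ones in the upper 5 genes and to the left in the lower 4, and the blue point of Il1b lies on the black one.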

How the data were processed

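RNA from macrophage cultures was sequenced as polyA RNA with a stranded kit, per the labels' protocols. The authors deposited raw counts per gene, and per the submitters' processing notes FastQC 0.11.9, GSNAP, featureCounts, Subread 1.5.2 and edgeR 3.26.8 were used with the GRCm38 (mm10) build. Which tool did what, whether counting used strand and which annotation it used are not given in the sources used here, so reads of overlapping or antisense genes may not be told apart. The deposited counts are even numbers only in 20 of the 30 libraries.

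All 30 libraries (10 groups of 3) were fitted together with edgeR 4.0.16 in R 4.3.3, by TMM scaling, a minimum count of 10 and the quasi-likelihood test, with Benjamini-Hochberg adjustment over 13173 genes and a threshold of 0.05. Standard errors were taken from the fold change and the F statistic. The same model tested the differences between responses. Alternatives were DESeq2 1.42.0 and its size factors, total counts, no filter, halved even counts, the compared groups alone, mouse as a block, and each library left out. Counts were also simulated from the 13173 genes, with the fitted spread and equal means in the 2 groups. At each fold 50 genes above 1 CPM were then changed, in random directions. The LPS comparison recovered 50, 90, 96 and 100% at folds of 1.5, 2, 4 and 8, with 7 of 12869 unchanged genes called. With so few genes changed, the dependence on scaling was not tested, nor was the recovery of genes at lower levels.

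Deviations from the group means correlated weakly in same-numbered mice (0.106, 0.107 and 0.146, against -0.0957 to 0.0092 for other pairs). Such deviations cancel within a group, so the values of the other pairs are tied to these and are no separate comparison. The pairing of libraries by mouse number was taken from the labels. Levels per length used GENCODE vM21 exon lengths.

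The members and the gene lists were chosen with earlier results of these data known. Genes were named by rule: the 15 largest changes each way among well-expressed genes without overlap between groups, list anchors, up to 6 members per list with the smallest p and members against their list's direction, the 12 highest levels, the 5 largest differences each way between responses, and the 5 most even and uneven list members. Well-expressed means an average log2 CPM of at least 2 over all 30 libraries, which a gene can reach through other groups. Rela, Tmem173, Il12a, Il23a, Ifi27l2a and the genes of chromosomal runs and of families named by prefix (Slfn, Ms4a, Trim, Rab) were named after their values were seen. Lists drawn up by symbol prefix were corrected for membership after values were seen, by removing genes of another kind such as kinases, effectors and immunoproteasome subunits and adding the Kifc kinesins. Cell type markers come from a list. Some genes that the rule names are not reported here. No adjusted p is given over a list alone, because the lists were chosen in this way.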

Additional observations from a re-analysis of the deposited data

Results flagged for a closer look

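The LPS response differed between 25HC-pretreated and untreated wild-type cells by edgeR's test of the difference itself in 1620 genes. Of them 9 are given here for their size, among genes averaging a log2 CPM of at least 2 over all 30 libraries. They were also chosen for responses by mouse that did not overlap. A gene can pass that average through groups where it is high, and Cxcl1 was low in untreated LPS cells. Larger responses after 25HC were those of Cxcl1 (a difference of 4.61 ± 1.11 on the log2 scale), Il1b (4.39 ± 0.61), Il1a (4.23 ± 1.11), Thbs1 (4.15 ± 0.60) and Id3 (3.75 ± 0.53). Smaller or opposite responses were those of Olfml3 (-5.52 ± 0.78), Il18rap (-4.03 ± 0.65), Cx3cr1 (-3.44 ± 0.77) and Gm5150 (-3.16 ± 0.88). Il1a and Cxcl1 did not pass without the untreated unstimulated library of mouse 3 (3.23 ± 1.49 and 3.16 ± 1.77). Whether the differences of the 9 genes lie in the unstimulated or the LPS levels was not tested. No vehicle or pretreatment time is given for the untreated cells, so effects of these and of 25HC cannot be told apart.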

How the results depend on the processing

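The calls with LPS depended most on scaling. On total counts, 54 of 158 counts of list members that rose or fell moved by more than 1.5 times, or to or from 0. On total counts without TMM 2277 genes were higher and 6533 lower, 3 called genes turned in sign, E2f1 (-0.0372), Osbp (-0.0792) and Spi1 (-0.0127), 9 named genes no longer passed and 11 that had not passed did, all lower with LPS (among them Nfkb1, Ripk3, Ifngr1, Tmem173, Ctsd, Abcg1, Cdkn1b and Pcna). Leaving out 1 library gave 3754 to 4085 genes higher, 3529 to 4069 lower, 1432 to 1614 at least 2-fold higher and 1593 to 1880 at least 2-fold lower. Fitting the 6 libraries alone gave 3400 higher and 3265 lower, and of 396 named genes 9 no longer passed (Cd68, Cd86, E2f1, Ftl1, Ier2, Klf2, Rel, Tlr13 and Zfp36l1). DESeq2, its size factors, halved even counts and no filter on low counts left the counts of genes called with LPS within 1.5 times, and among the named genes moved the calls of Csf2 and Csf3 alone (5.03 ± 1.82 and 4.03 ± 1.68 in DESeq2, passing). The difference from the Ch25h-/- response passed for 7 genes in DESeq2, and for 0 to 716 with 1 library left out. The difference from the 25HC-pretreated response gave 903 genes with the 4 groups alone and 889 to 2076 with 1 library left out. The causes were not tested.

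Pairing by mouse, which the labels number, was checked on the deviations from the group means. With mouse as a replicate block 4192 genes were higher and 4135 lower, 1516 and 1757 at least 2-fold, and 2087 differed after 25HC. Of the named genes only Apoe (-0.39 ± 0.14) and Irf3 (-0.17 ± 0.07) changed their call, both passing with the block.

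Csf2, Csf3, Il12a and Il23a rest on few reads, which limits the precision of their differences.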
